A study of Mesocricetus auratus with 6 samples.

Results

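The potassium channel genes of the Syrian hamster were described across cortex, suprachiasmatic nucleus (SCN) and liver of *duper* and wild-type animals. Every row of the gene tables whose symbol begins with Kcn was taken, which gave 94 of 31593 genes. They comprise 77 genes for channel subunits of the pore families, silent Kv subunits included, 16 for auxiliary subunits, and the regulator gene *Kcnrg*, and they were sorted by symbol into 16 groups, with *Kcnrg* alone in a group of its own. *duper* animals are hamsters of the Lakeview (LVG) ecotype homozygous for a spontaneous *Cry1* mutation that leaves no CRY1 protein, and the wild-type animals were LVG without it. All were raised in a light-dark cycle of 14 h and 10 h, and tissue was taken at a single circadian time, CT15, from 4 hamsters of each genotype. The *duper* animals were 4 females and the wild-type animals 2 males and 2 females, so genotype cannot be told apart from sex. The paper describes the *duper* line as bred independently of the commercial LVG stock that gave the wild-type animals. Genotype thus cannot be told apart from breeding line either. RNA of the 4 animals was pooled for each cortex and SCN library, and the liver values stand for 4 animals merged, which left 1 library per genotype and tissue and 6 libraries in all. Nothing within a tissue and genotype is therefore replicated. The 2 genotypes stood in for replicates between tissues, and the tissues, taken from the same hamsters, stood in for replicates between genotypes.

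Potassium channels let K+ leave or enter the cell along its gradient and so set the resting potential and end the action potential. Voltage-gated families repolarise the spike, calcium- and sodium-activated families follow firing, inward rectifiers and tandem-pore leak channels hold the resting potential, and auxiliary subunits tune gating and traffic. Neurons of the SCN, the master circadian pacemaker, fire faster by day than by night, and fast delayed rectifier, A-type, large-conductance calcium-activated and leak potassium currents are known to shape that rhythm. Hepatocytes and bile duct cells use potassium channels chiefly to support secretion, transport and volume control.

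Estimated counts per library ranged from 6788947 in wild-type cortex to 85748562 in *duper* liver. The liver libraries held the most counts, but 26 of the potassium channel genes had at most 3 counts over both of them. *Cry1* stood at 33.3 and 8.56 in cortex and 22.9 and 8.14 in SCN and 16.8 and 5.44 in liver TPM (transcript counts scaled for length and depth), lower in *duper* in every tissue, with the wild-type library named before the *duper* library here and throughout. Its log2 difference across tissues was -1.69 ± 0.18 (SE, 6 libraries, edgeR adjusted p = 0.0437). Of 8 tested SCN markers 5 were called higher in SCN than in cortex (*Six6*, *Lhx1*, *Vipr2*, *Rgs16*, *Syt10*), 1 lower (*Rora*) and 2 were not called, while *Avp*, *Vip* and *Grp* were not analysed here. The summed TPM of 10 cortex markers was 10.9 times higher in cortex than in SCN in wild type and 10.5 times in *duper*. Of 7 tested markers of neighbouring hypothalamus and pituitary 3 were called higher in SCN and 1 lower (*Sst*). In bulk tissue, fewer cells of a type and less RNA per cell cannot be told apart.

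Potassium channel genes were lower in SCN than in cortex far more often than higher. A gene was called when edgeR's quasi-likelihood test gave a Benjamini-Hochberg adjusted p under 0.05 over 19780 genes and the fold change exceeded 1.5. Of the 94 genes 88 had enough counts to be tested, and the other 6 (*Kcna10*, *Kcnj1*, *Kcnk15*, *Kcnk16*, *Kcnk18*, *Kcnv2*) had at most 17 counts over all libraries. Of these 88, 39 were called, against 10.6% of all tested genes. They comprised 5 higher in SCN and 34 lower, where 3.77% and 6.80% of all tested genes were, and 49 were not called. Each log2 difference below is SCN minus cortex on normalized counts, with its standard error (SE), and the adjusted p is printed where it was under 0.1. The median log2 difference was -0.71 over the 88 genes and 0.03 over all genes. By TPM, 50 of the 83 members with a mean of at least 1 TPM over the brain libraries had both SCN libraries below both cortex libraries (60.2%, against 30.9% of all genes), and 18 had both above (21.7%, against 31.2%). The summed TPM of the 94 genes was 3294 and 3189 in cortex against 1608 and 1792 in SCN, which is 2.05 times higher in cortex in wild type and 1.78 times in *duper*.

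**Figure D1:**
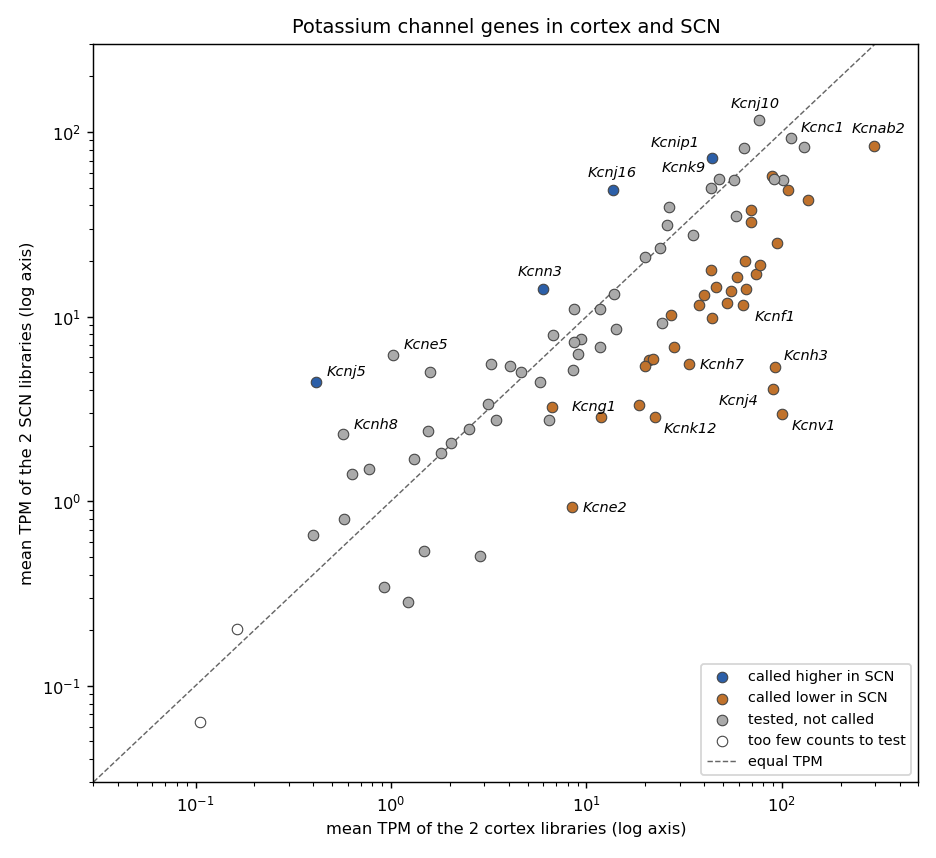
Mean TPM of each potassium channel gene in the 2 cortex libraries (horizontal, log axis) and the 2 SCN libraries (vertical, log axis); 1 point is 1 gene, coloured by the edgeR call, and the dashed line marks equal TPM. The 34 genes called lower in SCN lie below the line, most at 10 TPM or more in cortex, and the 4 called higher genes with counts in both tissues lie above it.

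The test leans on each library, since each tissue has 2. Leaving out wild-type cortex left 10 members called and leaving out *duper* cortex 17, and 10 stayed called whichever brain library was left out, all of them lower in SCN. Among them were *Kcnab2*, *Kcnh3*, *Kcnh7*, *Kcnj3*, *Kcnk12*, *Kcnn2*, *Kcnq5*, *Kcnt2* and *Kcnv1*. None of the 39 called members changed direction in any of the 19 alternatives. Without either liver library, which adds no brain data but changes the pooled spread, 53 were called.

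The voltage-gated families that repolarise the spike divided within themselves. In Kv1, the axonal low-threshold delayed rectifiers, *Kcna1* and *Kcna2* were called lower in SCN, and none of 7 tested members was called higher. *Kcna1* stood at 72.1 and 75.1 TPM in cortex and 17.0 and 17.0 in SCN. The SCN values were far under the cortex values, with a log2 difference of -2.11, SE 0.20, edgeR adjusted p = 0.00141. *Kcna2* stood at 105 and 110.3 TPM in cortex and 41.5 and 55.9 in SCN, again without overlap, and its log2 difference was -1.15, SE 0.17, edgeR adjusted p = 0.0073. *Kcna6*, another delayed rectifier, stood at 56.2 and 71.2 TPM in cortex and 78.0 and 86.0 in SCN and was not called (log2 0.37, SE 0.16). The member with the highest TPM was *Kcna2* in both cortex libraries and *Kcna6* in both SCN libraries. *Kcna4*, which gives an inactivating A-type current, stood at 9.11 and 8.01 TPM in cortex and 4.94 and 5.33 in SCN and was not called (log2 -0.73, SE 0.23).

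*Kcnb2*, a Kv2 slow delayed rectifier of the cell body and dendrite, was called lower. It stood at 6.41 and 6.88 TPM in cortex and 2.73 and 3.72 in SCN (log2 -1.06, SE 0.21, edgeR adjusted p = 0.0218).

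The Kv3 genes encode the fast delayed rectifiers that allow high firing rates. *Kcnc1* was the second most abundant of all 94 genes in SCN by mean TPM and stood at 107 and 117 TPM in cortex and 87.3 and 98.6 in SCN. It was not called (log2 -0.25, SE 0.19), although both SCN values lay under both cortex values. *Kcnc4* stood at 45.8 and 41.2 TPM in cortex and 47.8 and 51.6 in SCN and was not called either (log2 0.19, SE 0.16). *Kcnc2* was called lower and stood at 66.1 and 72.7 TPM in cortex and 33.4 and 41.7 in SCN (log2 -0.86, SE 0.15, edgeR adjusted p = 0.0122). The Kv3 sum was thus carried by *Kcnc1* more in SCN, at 47.8% and 48.0%, than in cortex, at 38.5% and 41.4%.

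Of the Kv4 genes, which carry the subthreshold A-type current, *Kcnd2* alone was called. It stood at 71.0 and 68.3 TPM in cortex and 30.9 and 33.9 in SCN, and its log2 difference was -1.10, SE 0.16, edgeR adjusted p = 0.00647. *Kcnd3* stood at 26.2 and 21.5 TPM in cortex and 22.1 and 25.1 in SCN, where the tissues overlap (log2 -0.02, SE 0.33, with a sign that turned with library-size scaling). *Kcnd1* stood at 9.99 and 8.70 TPM in cortex and 6.59 and 8.45 in SCN, with both SCN values under both cortex values, and was not called (log2 -0.31, SE 0.26).

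The silent Kv subunits, which form no channel alone and modify Kv2 channels, showed the lowest subfamily median, -2.02 on the log2 scale, with 5 of 9 tested genes called lower and none higher. *Kcnv1* stood at 102 and 99.4 TPM in cortex and 2.60 and 3.32 in SCN. It had the lowest difference of any member, -5.15, SE 0.20, edgeR adjusted p = 0.000345. *Kcng1* stood at 20.4 and 16.5 TPM in cortex and 2.04 and 4.56 in SCN (log2 -2.62, SE 0.39, edgeR adjusted p = 0.00717), *Kcnf1* at 65.6 and 61.5 TPM in cortex and 10.9 and 12.2 in SCN (log2 -2.47, SE 0.47, edgeR adjusted p = 0.0189). Both SCN values of each lay well below cortex. The other called genes were *Kcns2* and *Kcns3*, with log2 differences of -2.02 and -1.99. *Kcng2* had overlapping values in the tissues, 12.3 and 15.2 TPM in cortex and 14.5 and 11.8 in SCN (log2 -0.05, SE 0.27), and led the subfamily in wild-type SCN. The summed TPM of the 10 silent subunits was 244.0 and 243.2 in cortex against 43.9 and 46.9 in SCN.

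The EAG, ERG and ELK channels, slow voltage-gated channels that damp excitability, gave 4 of 8 called lower and none higher. *Kcnh3*, the forebrain ELK channel, stood at 104 and 80.1 TPM in cortex and 4.20 and 6.48 in SCN, with a log2 difference of -4.18, SE 0.27, edgeR adjusted p = 0.000411. *Kcnh7*, an ERG channel, stood at 31.4 and 35.6 TPM in cortex and 5.23 and 5.84 in SCN (log2 -2.59, SE 0.16, edgeR adjusted p = 0.000394). The EAG genes *Kcnh1* and *Kcnh5* were called lower as well, with log2 differences of -1.71 and -1.84. *Kcnh2*, the ERG channel best known from cardiac repolarisation, stood at 27.8 and 23.7 TPM in cortex and 30.4 and 32.4 in SCN (log2 0.27, SE 0.18) and replaced *Kcnh3* as the gene with the highest TPM of the subfamily in SCN. *Kcnh8*, another ELK gene, pointed the other way at low levels, 0.312 and 0.827 TPM in cortex and 2.06 and 2.53 in SCN, and missed the threshold (log2 2.24, SE 0.84), and *Kcnh4*, the third, stood at 27.5 and 21.3 TPM in cortex and 8.51 and 10.0 in SCN (log2 -1.41, SE 0.39, edgeR adjusted p = 0.0649).

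The KCNQ genes include subunits of the M-current, which restrains repetitive firing. *Kcnq3* stood at 89.2 and 89.6 TPM in cortex and 51.1 and 63.9 in SCN and just passed the threshold (log2 -0.64, SE 0.16, edgeR adjusted p = 0.049). The tissues do not overlap. *Kcnq5*, a further M-current subunit, was more clearly lower in SCN, at 43.4 and 44.5 TPM in cortex and 10.5 and 9.08 in SCN (log2 -2.21, SE 0.19, edgeR adjusted p = 0.00098).

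Calcium- and sodium-activated channels were mixed. *Kcnma1*, the pore of the large-conductance BK channel that is prominent in SCN neurons at night, stood at 43.9 and 36.2 TPM in cortex and 13.1 and 13.0 in SCN. All SCN values lay under cortex, and the log2 difference was -1.61, SE 0.26, edgeR adjusted p = 0.0101. Its neuronal beta subunit *Kcnmb4* was lower too, at 44.3 and 48.0 TPM in cortex and 13.3 and 15.8 in SCN (log2 -1.66, SE 0.33, edgeR adjusted p = 0.0218). *Kcnmb2*, the beta subunit that makes BK inactivate, stood at 5.48 and 6.04 TPM in cortex and 3.41 and 5.44 in SCN and was not called (log2 -0.43, SE 0.44). The sodium-activated *Kcnt2* was lower, 21.0 and 22.9 TPM in cortex and 5.60 and 6.14 in SCN (log2 -1.89, SE 0.17, edgeR adjusted p = 0.00104), and its relative *Kcnt1*, at 99.2 and 82.1 TPM in cortex and 52.8 and 58.8 in SCN, missed the threshold (log2 -0.66, SE 0.17, edgeR adjusted p = 0.0555).

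In the small-conductance SK group, which gives the afterhyperpolarisation, related genes differed in opposite directions. *Kcnn2* stood at 21.2 and 18.4 TPM in cortex and 5.50 and 5.32 in SCN, with a log2 difference of -1.87, SE 0.17, edgeR adjusted p = 0.0012. *Kcnn3* stood at 6.69 and 5.32 TPM in cortex and 12.9 and 15.3 in SCN, higher in both SCN libraries than in either cortex library (log2 1.22, SE 0.25, edgeR adjusted p = 0.0236). So *Kcnn2* led the group in cortex and *Kcnn3* in SCN. The log2 difference of *Kcnn3* lay between 0.81 and 1.64 across settings, and its call did not hold in all of them. *Kcnn1* stood at 16.2 and 12.0 TPM in cortex and 8.21 and 8.90 in SCN and was not called (log2 -0.72, SE 0.74).

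Of 13 tested inward rectifiers 2 were called higher in SCN, 5 lower and 6 were not called. *Kcnj3* stood at 50.6 and 53.8 TPM in cortex and 11.3 and 12.3 in SCN (log2 -2.12, SE 0.14, edgeR adjusted p = 0.00049). *Kcnj6* stood at 42.1 and 44.3 TPM in cortex and 14.8 and 21.2 in SCN (log2 -1.32, SE 0.17, edgeR adjusted p = 0.00382), and *Kcnj9* at 96.6 and 91.5 TPM in cortex and 23.8 and 26.1 in SCN (log2 -1.90, SE 0.17, edgeR adjusted p = 0.000982). *Kcnj5*, best known from heart and adrenal gland, was instead higher in SCN, at 0.130 and 0.696 TPM in cortex and 4.31 and 4.56 in SCN (log2 3.48, SE 0.67, edgeR adjusted p = 0.0191). Its log2 difference lay between 1.97 and 5.21 across settings, and its call did not hold in all of them. *Kcnj4*, a strong rectifier of forebrain neurons, stood at 113 and 66.8 TPM in cortex and 3.77 and 4.36 in SCN (log2 -4.42, SE 0.30, edgeR adjusted p = 0.000838), and *Kcnj11*, the pore of the neuronal ATP-sensitive channel, at 26.1 and 28.1 TPM in cortex and 9.55 and 11.0 in SCN (log2 -1.46, SE 0.21, edgeR adjusted p = 0.00672). None of the SCN values of these lower genes reached a cortex value. *Kcnj12* and *Kcnj2*, strong rectifiers like *Kcnj4*, were not called, with log2 differences of -0.19 and -0.53.

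The astrocyte channel pair pointed the other way. *Kcnj10*, which clears extracellular K+, had the highest mean TPM of all members in SCN, at 76.7 and 76.5 TPM in cortex and 100.0 and 132 in SCN, yet missed the threshold (log2 0.63, SE 0.19, edgeR adjusted p = 0.0888). *Kcnj16*, which joins it in heteromers, stood at 10.1 and 17.1 TPM in cortex and 44.3 and 52.6 in SCN and was called (log2 1.86, SE 0.18, edgeR adjusted p = 0.00141), though not when wild-type cortex was left out. Beside them, astrocyte markers did not move together. Of 6 genes 1 was called higher in SCN (*Aqp4*, 75.7 and 96.0 TPM in cortex and 229 and 220.5 in SCN) and 1 lower (*Slc1a2*, 815 and 868 TPM in cortex and 287 and 348 in SCN), and their summed TPM was 2485 and 2690 in cortex and 2046 and 2230 in SCN, with none at 0. Their part in the result was not tested.

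*Kcnj13* and *Kcne2* are both known from choroid plexus epithelium. *Kcne2* stood at 7.63 and 9.22 TPM in cortex and 1.49 and 0.364 in SCN and was called lower in SCN (log2 -3.07, SE 0.67, edgeR adjusted p = 0.0307). *Kcnj13* stood at 12.8 and 10.6 TPM in cortex and 11.6 and 2.10 in SCN, with *duper* SCN apart from the other 3 libraries, and was not called (log2 -1.28, SE 0.56). The choroid plexus gene *Ttr* stood at 1837 and 2505 TPM in cortex and 165 and 24.1 in SCN, and the summed TPM of 7 choroid plexus and ependyma genes was 1869 and 2561 in cortex against 229.0 and 84.2 in SCN. That sum is mostly *Ttr*, the 1 gene of the list called lower in SCN. *Kl* pointed the same way as *Ttr* and missed the threshold (log2 -1.87, SE 0.49, edgeR adjusted p = 0.0688). *Clic6* had a small negative difference that was not called (log2 -0.13, SE 0.64). Another 4 had positive differences that were not called (*Cdhr4* 1.82, *Ccdc153* 1.39, *Tmem212* 0.86 and *Foxj1* 0.07 on the log2 scale). None of the 7 was at 0 in all brain libraries, and their part in the 2 channel results was not tested. The other genes of the glia and barrier list, *Kcna3*, *Kcnk13*, *Kcnn4* and *Kcnj8*, were not called, so 1 of 8 was higher, 1 lower and 6 not called.

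Tandem-pore leak channels (K2P) gave 1 of 12 tested genes called higher and 2 lower, with a median of -0.22. *Kcnk9*, an acid-sensitive leak channel, stood at 48.3 and 47.2 TPM in cortex and 54.7 and 56.8 in SCN and led the family in SCN (log2 0.24, SE 0.14). *Kcnk2*, a mechanically gated leak channel, stood at 34.6 and 35.9 TPM in cortex and 30.6 and 24.6 in SCN (log2 -0.35, SE 0.18), and *Kcnk3*, the closest relative of *Kcnk9*, at 11.6 and 11.8 TPM in cortex and 9.90 and 12.0 in SCN (log2 -0.10, SE 0.20, with a sign that turned with library-size scaling). These 3 leak channels were not called. *Kcnk12*, which is silent on its own in most cells, was lower at 22.1 and 22.6 TPM in cortex and 2.66 and 3.06 in SCN (log2 -2.97, SE 0.18, edgeR adjusted p = 0.000371), and *Kcnk1*, a weak inward-rectifying leak channel, stood at 63.2 and 66.5 TPM in cortex and 20.9 and 19.1 in SCN (log2 -1.69, SE 0.42, edgeR adjusted p = 0.0486). *Kcnk5*, an alkali-activated epithelial channel, had no count in either cortex library and 18 counts in the 2 SCN libraries together, at least 2.47-fold higher against a floor of 3 counts over both cortex libraries. It was called, and at 0.290 and 0.245 TPM its level in SCN was low. This bound, like all counting intervals here, covers counting error only.

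Among auxiliary subunits the genes of the cytoplasmic Kv beta subunits, which bind Kv1 channels, were all called lower. *Kcnab2*, the member with the highest TPM in cortex, stood at 300.3 and 290.3 TPM in cortex and 76.4 and 92.1 in SCN (log2 -1.81, SE 0.15, edgeR adjusted p = 0.000846), and *Kcnab1* and *Kcnab3* had log2 differences of -2.06 and -1.84. The Kv4 partners of the KChIP family switched order. *Kcnip2* stood at 148 and 124 TPM in cortex and 43.0 and 42.6 in SCN (log2 -1.66, SE 0.16, edgeR adjusted p = 0.00145) and *Kcnip1* at 40.8 and 47.2 TPM in cortex and 71.2 and 73.0 in SCN, with the SCN values higher (log2 0.74, SE 0.19, edgeR adjusted p = 0.05, at the edge of the threshold and not called when any 1 of the brain libraries was left out). *Kcnip4* was level across tissues, 51.2 and 62.9 TPM in cortex and 55.2 and 55.0 in SCN (log2 -0.07, SE 0.16). Among the KCNE subunits *Kcne4*, which inhibits several Kv channels, led in both tissues at 24.2 and 28.9 TPM in cortex and 36.8 and 41.4 in SCN and was not called (log2 0.92, SE 0.29, edgeR adjusted p = 0.0949).

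**Figure D2:**
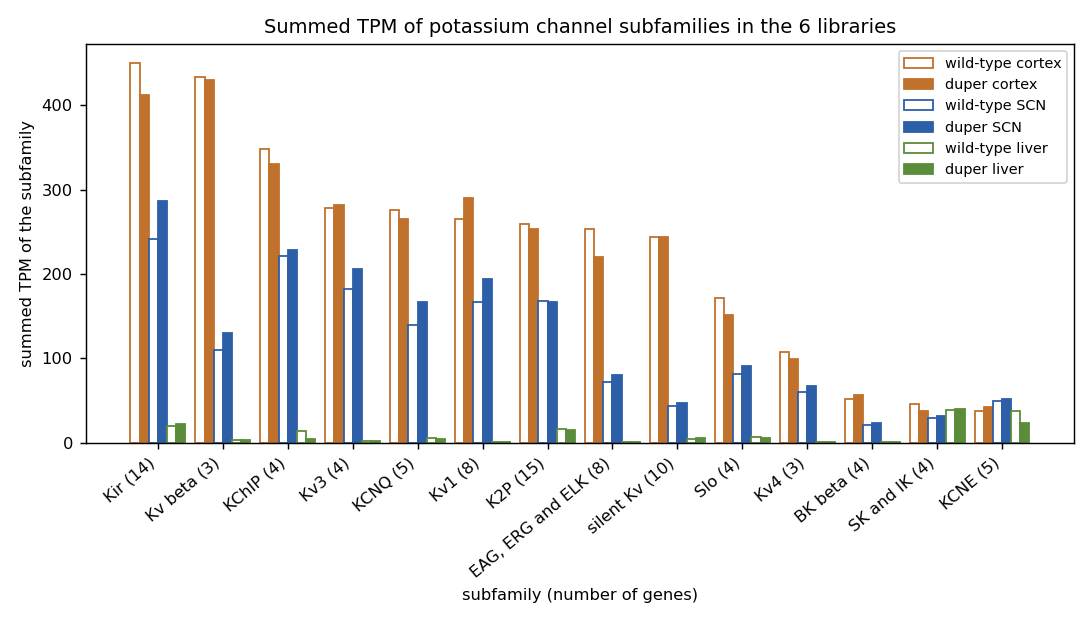
Summed TPM (vertical) of the genes of each subfamily of 3 or more genes (horizontal, with the number of genes) in the 6 libraries; 1 bar is 1 library, open for wild type and filled for *duper*. The cortex bars exceed the SCN bars in every subfamily drawn except KCNE, and the liver bars reach those of a brain tissue only in SK and IK and, in wild type, in KCNE.

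Over the 27 channel genes linked to pacemaker firing, 1 was called higher in SCN (*Kcnn3*), 14 lower, and 12 were not called, with a median log2 difference of -0.86. The uncalled genes included *Kcnc1*, *Kcnd1*, *Kcnd3*, *Kcnk2*, *Kcnk3* and *Kcnk9*, named here with their values above. The summed TPM of the list was 2.20 times higher in cortex than in SCN in wild type and 1.87 times in *duper*. Partner genes of excitability (sodium leak, sodium, calcium and HCN channels, sodium pump and channel-associated proteins) gave 0 of 31 tested genes higher and 8 lower, with a median of -0.41. *Nalcn*, the sodium leak channel that depolarises pacemaker neurons, stood at 78.2 and 84.9 TPM in cortex and 87.9 and 101 in SCN and was not called.

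**Figure D3:**
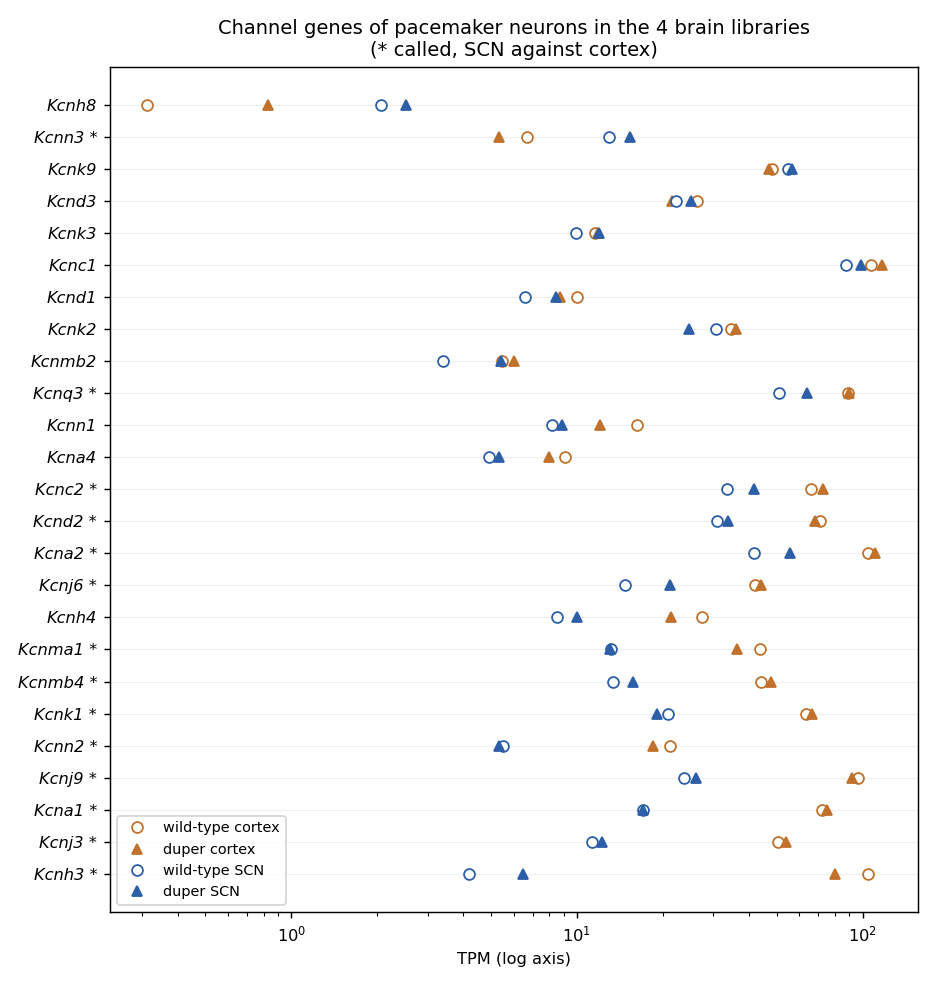
TPM (horizontal, log axis) of 25 channel genes linked to pacemaker firing in the 4 brain libraries, ordered by their log2 difference between SCN and cortex; open circles are wild type, filled triangles *duper*, and asterisks mark called genes. Only *Kcnn3* carries an asterisk with its SCN values above cortex, and *Kcnh3* at the foot has SCN values of 4.20 and 6.48 against 104 and 80.1 in cortex.

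Genes expressed by neurons in general were also lower in SCN more often than higher. Of 11 such genes, a list chosen after the values were seen, 5 were called lower in SCN (*Snap25*, *Syt1*, *Rbfox3*, *Nefl*, *Elavl4*) and 0 higher, with a median log2 difference of -0.52, and their summed TPM was 1.78 times higher in cortex in wild type and 1.60 times in *duper*. For the potassium channel genes those ratios were 2.05 and 1.78. None of the 11 was at 0 in a brain library. The part of neuron content in the channel results was not tested.

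Liver held few potassium channel transcripts. At least 1 TPM in both libraries of a tissue was reached by 20 of the 94 genes in liver and by 78 in cortex and 78 in SCN, and the summed TPM was 150.7 and 124.7 in liver. Of 88 tested genes 72 were called, against 66.2% of all genes. By direction, 6 were higher in liver than in the mean of cortex and SCN and 66 lower, where 33.6% and 32.6% of all genes were, and the median log2 difference was -5.34 against 0.02 over all genes. In liver 15 members had no count in either library. *Kcnh2*, for instance, was at least 1134-fold lower, *Kcnk2* at least 1002-fold and *Kcna4* at least 476-fold, against a floor of 3 counts over both livers. On other scalings the median of all genes moved by -1.24 (library size) and -1.09 (log2(TPM + 1)), and 84 and 82 members were then called, 5 and 4 of them higher.

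A calcium-activated channel led the liver profile. *Kcnn2* stood at 38.4 and 38.4 TPM in liver, the same in both genotypes, against 21.2 and 18.4 TPM in cortex and 5.50 and 5.32 in SCN (log2 3.36, SE 0.13, edgeR adjusted p = 4.62e-07). It made up 27.9% of the mean member TPM in liver. *Kcnk5*, the alkali-activated leak channel, stood at 9.36 and 7.42 TPM in liver against 0 TPM in both cortex libraries and 0.290 and 0.245 in SCN, a liver mean 62.8 times the brain mean in TPM (edgeR adjusted p = 1.5e-06). Its log2 difference, which rests on how the fit treats the cortex zeros, lay between 3.05 and 9.69 across settings. *Kcne3*, the subunit that holds *Kcnq1* channels open in secretory epithelia, stood at 5.96 and 7.14 TPM in liver and 1.55 and 2.52 TPM in cortex and 2.02 and 2.13 in SCN (log2 3.04, SE 0.30, edgeR adjusted p = 6.61e-05). Its partner *Kcnq1* was low in every library, at 0.352 and 0.269 TPM in liver and 0.905 and 0.243 TPM in cortex and 0.371 and 1.22 in SCN, and was not called.

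*Kcnj15*, an inward rectifier of epithelia, stood at 2.29 and 1.53 TPM in liver and 0.714 and 1.13 TPM in cortex and 0.194 and 0.487 in SCN (log2 3.60, SE 0.50, edgeR adjusted p = 0.000458). These 4 genes were higher in liver in every alternative in which they were tested, but the size of the difference depended on the setting. The log2 difference lay between 1.77 and 3.54 for *Kcnn2*, between 1.31 and 3.17 for *Kcne3* and between 0.86 and 4.24 for *Kcnj15*. The remaining pair called higher depended on the scale. *Kcnj8*, the pore of the vascular ATP-sensitive channel, stood at 4.87 and 4.68 TPM in liver and 4.93 and 3.17 TPM in cortex and 4.97 and 5.88 in SCN, nearly equal in TPM, while its log2 difference on normalized counts was 1.62, SE 0.27, edgeR adjusted p = 0.0011. *Kcnk6*, a leak channel, stood at 1.09 and 1.07 TPM in liver and 0.930 and 1.51 TPM in cortex and 0.342 and 0.228 in SCN (log2 2.38, SE 0.39, edgeR adjusted p = 0.00104), and neither was called on log2(TPM + 1). *Abcc9*, which encodes the regulatory subunit that pairs with *Kcnj8*, stood at 3.93 and 5.49 TPM in liver and 2.25 and 1.83 TPM in cortex and 1.35 and 2.10 in SCN and was called higher.

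Other members kept a level in liver without being higher there. *Kcne4* stood at 31.4 and 14.8 TPM in liver and was not called against brain (log2 0.23, SE 0.24), although it was called higher without *duper* liver. *Kcnj10* stood at 9.46 and 12.7 TPM in liver and was called lower (log2 -1.50, SE 0.18, edgeR adjusted p = 0.000193), and its partner *Kcnj16* stood at 0.192 and 0.228 TPM. *Kcnk3*, *Kcng2*, *Kcnt2*, *Kcnj2* and *Kcnk13* lay between 1.62 and 3.76 TPM in liver and were not called on normalized counts. In TPM each had a lower mean in liver than in cortex or SCN. The liver, cortex and SCN means were 3.59, 11.7 and 10.9 for *Kcnk3* and 3.04, 13.8 and 13.2 for *Kcng2*. They were 2.90, 22.0 and 5.87 for *Kcnt2*, 2.14, 9.07 and 6.26 for *Kcnj2*, and 1.95, 6.77 and 7.97 for *Kcnk13*. Of the 13 genes listed as liver channels, 5 were called higher, 5 lower and 3 not. Among those lower, *Kcna2* stood at 0.0238 and 0.0139 TPM in liver.

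**Figure D4:**
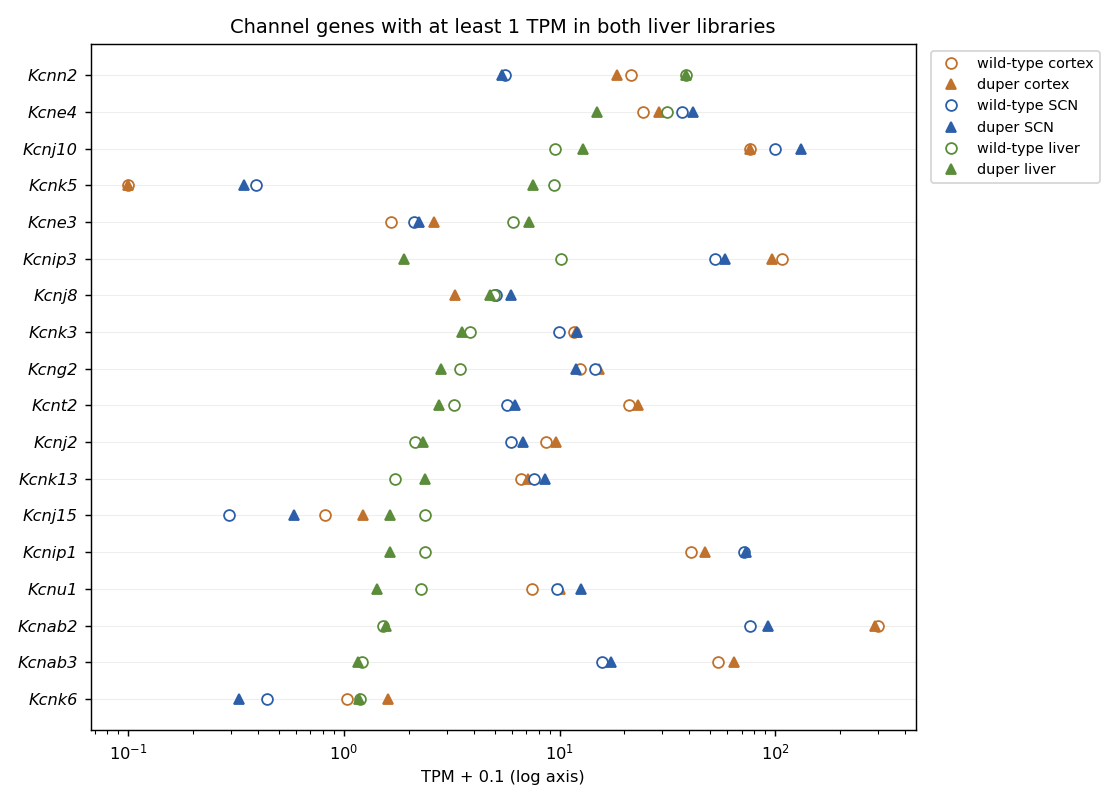
TPM + 0.1 (horizontal, log axis) in all 6 libraries of 18 channel genes with at least 1 TPM in both liver libraries, ordered by their mean in liver; circles are wild type and triangles *duper*. Liver points lie to the right of all brain points for *Kcnn2*, *Kcnk5*, *Kcne3* and *Kcnj15*, and to the left for most other genes.

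No potassium channel gene was called between *duper* and wild type. Across the 3 tissues 0 of 88 tested genes passed edgeR's quasi-likelihood test, against 0.0758% of all genes, and 0 by DESeq2, by the likelihood ratio test and by limma. At an unadjusted p under 0.05, 2 members passed, where 3.52% of all genes did. In the 4 brain libraries alone 0 of 81 were called, against 0.130% of all genes, and 5 had an unadjusted p under 0.05, where 5.26% of all genes did. The median log2 difference, *duper* minus wild type, was 0.06 over the members across tissues and 0.02 in brain.

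The 5 members with the lowest p in brain were *Kcnj13*, *Kcnj16*, *Kcnj4*, *Kcna2* and *Kcns2*. *Kcnj16* was higher in *duper* in each tissue, at 10.1 and 17.1 TPM in cortex and 44.3 and 52.6 in SCN and 0.192 and 0.228 TPM in liver, with a log2 difference in brain of 0.41, SE 0.14, edgeR adjusted p = 0.681. *Kcnj13* gave -1.25, SE 0.40, edgeR adjusted p = 0.619, a value set mainly by SCN. *Kcna2* was higher in *duper* in both brain tissues, 0.23, SE 0.10, edgeR adjusted p = 0.93, and so was *Kcns2*, 0.32, SE 0.14, edgeR adjusted p = 0.932. *Kcnj4* was lower in cortex and slightly higher in SCN, -0.45, SE 0.19, edgeR adjusted p = 0.918. None of these differences passed the adjusted threshold.

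Within a tissue there is no test, since each genotype has 1 library, and a gene was listed when log2(TPM + 1) differed by more than 0.58 at a mean of at least 1 TPM. In cortex 5 of 80 members were listed, 2 higher and 3 lower in *duper*, against 8.24% higher and 7.75% lower of all genes. *Kcnj16* stood at 10.1 TPM in wild type and 17.1 in *duper* (log2 TPM ratio 0.76, interval 0.44 to 1.08, here and below the exact 95% counting interval of the plain TPM ratio). *Kcnj4* stood at 113 in wild type and 66.8 in *duper* (log2 TPM ratio -0.75, interval -0.92 to -0.59). The others were low. *Kcns1* stood at 2.52 and 4.38 (log2 TPM ratio 0.79, interval 0.05 to 1.59), *Kcng3* at 4.08 and 1.64 (log2 TPM ratio -1.32, interval -2.20 to -0.47), and *Kcne1* at 3.13 and 0.456 (log2 TPM ratio -2.78, interval -6.03 to -0.50). The intervals exclude 0 for all 5 but hold no animal or library spread.

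In SCN 5 of 80 members were listed as well, 2 higher and 3 lower, against 6.67% and 7.70% of all genes. The 2 SCN libraries differ in depth, with 29936218 estimated counts in wild type and 7248840 in *duper*. *Kcnj13* stood at 11.6 in wild type and 2.10 in *duper* (log2 TPM ratio -2.47, interval -3.21 to -1.81), beside *Ttr* at 165 and 24.1 in the same libraries. *Ttr* was the 1 gene of the 7 of choroid plexus and ependyma past 1.5-fold lower there, and *Clic6*, another, stood at 9.08 and 13.1. The silent subunits *Kcng1* and *Kcng4* were higher in the *duper* library, *Kcng1* at 2.04 and 4.56 (log2 TPM ratio 1.16, interval 0.74 to 1.58) and *Kcng4* at 0.733 and 2.24 (log2 TPM ratio 1.61, interval 1.08 to 2.14). *Kcnmb1*, the BK beta subunit of smooth muscle, stood at 2.39 and 0.417 (log2 TPM ratio -2.51, interval -5.60 to -0.58), and *Kcnk17*, a leak channel, at 3.33 and 1.58 (log2 TPM ratio -1.08, interval -2.26 to -0.08). Of the 27 pacemaker genes none was past the limit in SCN. The BK pore *Kcnma1* stood at 13.1 and 13.0 there, *Kcnc1* at 87.3 and 98.6 and *Kcnd2* at 30.9 and 33.9.

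In liver 3 of 23 members were listed, 1 higher and 2 lower, against 4.75% and 10.5% of all genes. *Kcne4* stood at 31.4 in wild type and 14.8 in *duper* (log2 TPM ratio -1.09, interval -1.27 to -0.91). *Kcnip3*, a calcium sensor known both as a channel partner and as a transcriptional repressor, stood at 10.1 and 1.81 (log2 TPM ratio -2.49, interval -2.69 to -2.29), and *Kcnf1*, a silent subunit, at 0.504 and 1.91 (log2 TPM ratio 1.92, interval 1.61 to 2.25). *Kcnn2*, the most abundant member of liver, was 38.4 in both genotypes.

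**Figure D5:**
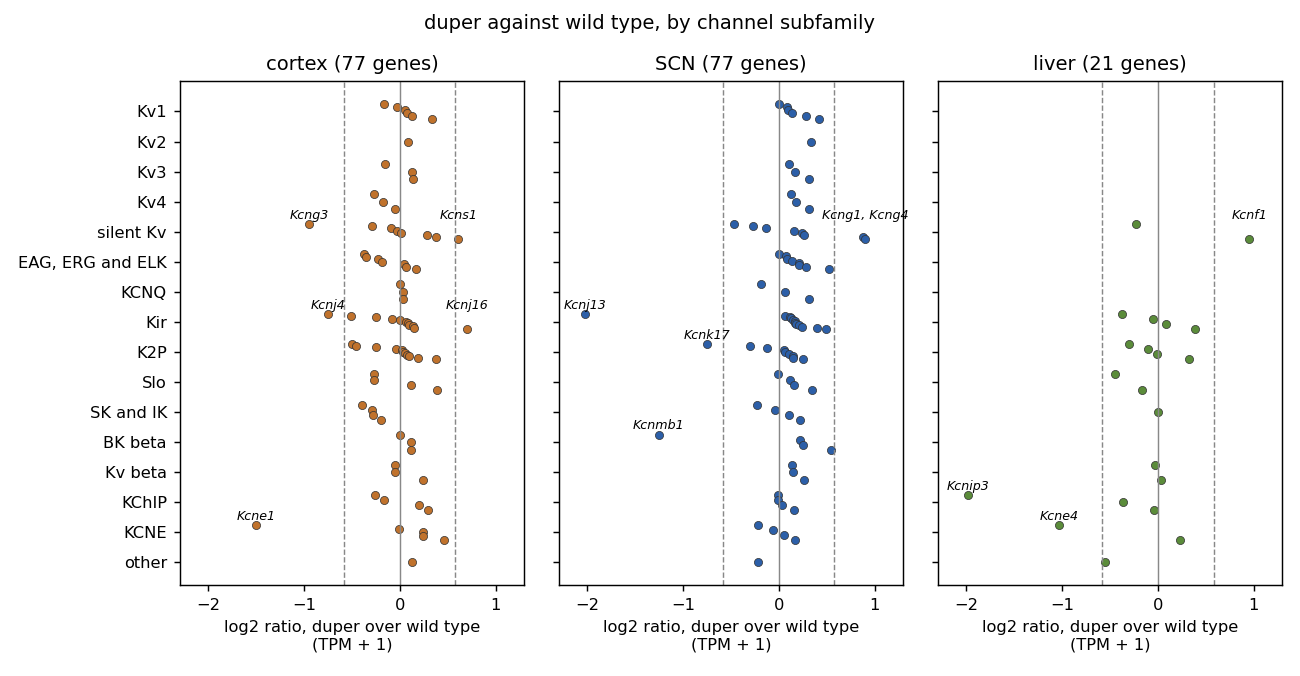
Log2 ratio of *duper* over wild type on the TPM + 1 scale (horizontal) for members with a mean of at least 1 TPM in cortex (77 drawn), SCN (77) and liver (21), by subfamily (vertical); 1 point is 1 gene, with 1 library per genotype, and dashed lines mark 1.5-fold. Most points lie between the lines, and the 13 named genes lie outside.

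The subfamily sums moved little between genotypes in brain. The ratio of *duper* to wild type in the summed TPM lay between 0.807 (SK and IK) and 1.12 (KCNE) in cortex and between 0.989 (K2P) and 1.19 (KCNQ) in SCN, *Kcnrg* aside. Over all 94 genes it was 0.968 for cortex, 1.11 for SCN and 0.827 for liver. The median log2 ratio of members over cortex, SCN and liver was 0.02, 0.14 and -0.05, where all genes had 0.02, 0.02 and -0.10. A positive ratio was found for 43 of 80 members in cortex (9643 of 18096 of all genes) and 8 of 23 in liver (5092 of 14054). In SCN 60 of 80 members had a positive ratio, against 9752 of 18305 of all genes. Beside them, 11 of the 11 genes expressed by neurons in general had a positive ratio in SCN, with a median of 0.18 and a summed TPM 1.13 times that of wild type. Of 5 oligodendrocyte markers 0 did, with a median of -0.28 and a sum 0.831 times that of wild type. Among 8 SCN markers 2 did, with a median of -0.37, and the sum of that list was 0.849 times that of wild type. Among 8 microglia and macrophage markers 7 did (median 0.35, sum 1.25 times), and among 8 markers of neighbouring hypothalamus and pituitary 4 did (median 0.05, sum 1.10 times). Of these hypothalamus and pituitary markers 1 was past 1.5-fold higher in *duper* SCN (*Pomc*, 6.17 and 17.4 TPM). Another 2 were lower, *Pmch* at 58.2 and 11.4 TPM and *Hcrt* at 2.39 and 0. The largest part of their sum was *Sst*, at 197 and 273 TPM. The part of cell content in the channel values was not tested.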

How the data were processed

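Kallisto, whose version is not given in the sources used here, was run by the authors on MesAur2.0 transcripts, and estimated counts of the transcripts of a gene were added up with tximport. The authors deposited estimated counts, not normalized, and TPM per gene, with the same 2 units per transcript and library. Strand handling in the quantification is not given, so reads of overlapping antisense genes could not be told apart. The 6 libraries were grouped by the tissue and genotype in their labels, and no sample column was left unused.

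Estimated counts were rounded, filtered with filterByExpr by tissue, scaled by TMM and fitted in edgeR (version 4.0.16, under R 4.3.3) with terms for tissue and genotype over all 6 libraries, which leaves 2 residual degrees of freedom, and the quasi-likelihood F test was applied. The brain libraries alone were fitted likewise, with 1 residual degree of freedom. A call needed an absolute log2 difference above 0.58 and, with p-values adjusted over all tested genes by Benjamini and Hochberg, a value under 0.05. Within a tissue, TPM were compared on log2(TPM + 1) without a test, with exact 95% counting intervals of the plain TPM ratio (scipy 1.17.1), which like the floor of 3 counts cover counting error only. The fits and intervals were tested on simulated data. DESeq2 1.42.0 and limma 3.58.1 were alternatives. The p-values and SE rest on how far these pooled libraries depart from the added effects of tissue and genotype. No spread between replicate libraries could be measured, since each tissue and genotype has 1 library.

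The members, gene lists and tests were chosen with earlier results of these data known. Named were listed pacemaker, glia and liver channel genes, up to 10 called members in each direction, the 5 with the lowest p between genotypes, members past 1.5-fold within a tissue, and the leading gene of each subfamily. Some genes that this rule names are counted but not reported here, in the text or by name in the plots. No sequence or coordinates of the channel genes were used here.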

Additional observations from a re-analysis of the deposited data

Results flagged for a closer look

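Some members had a *duper* to wild-type difference that pointed one way in a tissue and the other way in another, with both counting intervals of the TPM ratio on opposite sides of 0. Each rests on 1 library per genotype and tissue, and the difference between tissues was not tested against any spread between libraries. How many of all genes meet this rule was not computed. All values are differences of log2(TPM + 1) ratios.

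The silent subunit gene *Kcng1* was higher in *duper* SCN (0.87) and lower in *duper* cortex (-0.29), a gap of 1.16. *Kcnh3*, lower in SCN than cortex in both genotypes, gave 0.53 in SCN and -0.38 in cortex, a gap of 0.90. Smaller gaps between SCN and cortex were 0.51 for *Kcnn3*, 0.42 for *Kcnt1* and 0.31 for *Kcnip3*, each higher in *duper* SCN and lower in *duper* cortex. Their SCN ratios were 0.22, 0.15 and 0.15, where the median of members in SCN was 0.14. *Kcnd3* gave 0.18 in SCN and -0.27 in cortex, a gap of 0.45. Seen the other way, its SCN minus cortex difference was 0.21 in *duper* and -0.23 in wild type, again a gap of 0.45.

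Gaps with liver were 2.14 for *Kcnip3* (0.15 in SCN, -1.99 in liver) and 0.84 and 0.79 for *Kcnu1*, known from sperm, whose *duper* value was higher in cortex and SCN and lower in liver.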

How the results depend on the processing

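The labels give no replicate numbers. The genotype term pairs tissues of the same pooled hamsters, and without it 43 members were called between SCN and cortex and 74 between liver and brain. Of 88 members 39 were called between SCN and cortex. Asking for at least 10 counts in every library left 37 members tested and 19 called there and 30 for liver against brain, where fewer genes were tested by construction. Leaving out 1 library in turn gave 10 to 53 calls between SCN and cortex (10 without wild-type cortex, 17 without *duper* cortex), 71 to 73 for liver against brain and 0 to 0 for *duper* against wild type. The other settings gave 26 (limma on log2(TPM + 0.1)) to 54 (brain libraries only) calls between SCN and cortex, 42 by DESeq2. In brain, testing every gene with at least 1 count called 1 member, *Kcnj13*, between genotypes. The members past 1.5-fold within cortex, SCN and liver became 10, 8 and 6 with a pseudocount of 0.1 TPM. With a mean of at least 5 TPM they became 2 in cortex and 1 in SCN, and on TMM-normalized CPM 5 in liver. Signs turned for 0 of the 39 and 0 of the 72 called members, and for 16 of 49 and 6 of 16 uncalled ones. Of the genes named by rule they turned between SCN and cortex for *Kcnd3* (0.15 with library-size scaling, 0.08 without *duper* SCN, 0.52 without wild-type cortex), *Kcnk3* (0.068 with library-size scaling, 0.017 without wild-type SCN), *Kcna3* (-0.056 without *duper* SCN) and *Kcnn1* (0.29 without wild-type cortex), whose ranges with 1 library left out were -0.48 to 0.52, -0.21 to 0.017, -0.056 to 0.22 and -1.40 to 0.29, and in liver against brain for *Kcnq1* (-0.67 with library-size scaling, -0.32 and -0.74 with limma on TPM). The cause was not tested. Members at a few counts in the shallowest library, wild-type cortex, are limited by depth.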

Other observations

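The transcript tables show which annotated transcript carried a channel gene in each brain tissue. Of the 61 members with more than 1 transcript, 45 had at least 50 counts in each brain library, and in 14 of these a transcript's share of the gene's TPM differed by more than 15 points between the tissue means without overlap. The clearest was the leak channel *Kcnk9*, whose level was alike in the tissues. Its transcript of 6967 bases held 37.3% and 34.2% in cortex and 80.0% and 79.1% in SCN, with gaps between genotypes of 3.15 and 0.95 points. A transcript of 2440 bases of the KChIP gene *Kcnip4* held 69.9% and 81.1% in cortex and 42.2% and 47.6% in SCN. For *Kcnh1*, a transcript of 7663 bases held 67.8% and 62.7% in cortex and 41.4% and 20.6% in SCN. The shares are estimates that divide reads shared by transcripts, they carry no error of their own, and no test was made. How many of all genes pass the 15-point rule was not computed, so 14 of 45 cannot be read as particular to channel genes. Gaps between genotypes within a tissue reached 50.1 points, for a transcript of 6310 bases of *Kcnt2* in SCN.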
